A study of Mus musculus with 16 samples.

Results

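Vimentin, nestin and lamin B1 are 3 proteins of the intermediate filament family, and their transcripts were followed here on every array of a comparison of WT and M833 mouse cells. The members were the probes whose platform annotation gives the single symbol Vim, Nes or Lmnb1, which made 3 of 7114 named genes and 4 of the 15247 probes: probe 211400 for Vim, probe 203793 for Nes and probes 200764 and 201347 for Lmnb1. By its title the series concerns Met mutations in MEFs, a usual short form for mouse embryonic fibroblasts. The labels give the cell types only as WT and M833, with no genotype, passage, age or clone and no word on what M833 stands for. There were 16 two-colour arrays, and on each the total RNA of WT or M833 cells was hybridised against a common reference of unstated make-up. Of the 8 WT and the 8 M833 arrays, 4 each had the sample in Cy5 (replicates 1 to 4) and 4 had it in Cy3 (replicates 5 to 8). The labels do not tie arrays to cultures, and p-values therefore measured the spread between arrays, which may be technical.

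Values are log2 ratios, read as sample over reference. That direction is likely and not stated: the titles put the cell type before the reference, all pairs of arrays, of either dye orientation, correlated positively over all probes (r between 0.591 and 0.973), and the globin gene Hbb-b1 (-6.90) and the albumin gene Alb (-6.33) were far below 0 in WT. A ratio places a gene against the reference only, so the ratios of different genes cannot be ranked by transcript level. The WT arrays formed 2 sets. Over all features other than the members, deviations from the cell type and dye means had rank correlations from 0.28 to 0.59 within WT replicates 1, 2, 5 and 6 or within WT replicates 3, 4, 7 and 8, and from -0.65 to -0.28 between these sets. In M833 the same replicate numbers gave -0.26 to 0.25 within and -0.42 to 0.01 between sets, and these ranges overlapped. The M833 arrays were thus not split as clearly by these numbers, and other groupings of them were not examined in this way. What distinguished the WT sets is not in the labels, and results are given with and without each set. On WT replicate 2, 49 values exceeded 8 on the log2 scale, against 0 on the other arrays, and none of them belonged to a member.

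Intermediate filaments are rope-like polymers of coiled-coil proteins and form the third cytoskeletal system beside actin and microtubules. Vimentin is the main cytoplasmic filament protein of fibroblasts and other mesenchymal cells and assembles by itself. Nestin is a large member first known from neural progenitors, also made by muscle progenitors, endothelial cells and dividing mesenchymal cells, which enters filaments together with vimentin. Lamin B1 lies under the inner nuclear membrane, to which a farnesyl group anchors it, and is known to be lost from senescent cells.

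Lmnb1 was higher in M833 than in WT, whichever WT set was compared, whereas the difference of Nes came from the WT replicates 1, 2, 5 and 6 and that of Vim was small. The fitted log2 differences, M833 minus WT with dye orientation in the model, were 0.56 ± 0.07 for Lmnb1, 0.64 ± 0.22 for Nes and -0.19 ± 0.05 for Vim (SE, n = 8 arrays per cell type). These equal ratios of 1.47, 1.56 and 0.875, M833 over WT. All 3 genes passed the limma test at an adjusted p under 0.05 over all 12761 features, with adjusted p = 1.7e-05 for Lmnb1, 0.0476 for Nes and 0.0142 for Vim. In that comparison 25.9% of all features were called, 10% higher and 15.9% lower in M833, and 31.9% of named genes, so that passing the test does not by itself set these genes apart.

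Nes had the widest spread of the members in WT and the narrowest in M833, by the SD after adjustment for dye. With WT in Cy5 its log2 ratio was -0.41, -0.44, 0.76 and 0.79 on replicates 1 to 4. With WT in Cy3 it was -0.05, -0.24, 1.15 and 1.05 on replicates 5 to 8. Both dye orientations thus held a low and a high pair, with no array in between. With M833 in Cy5 Nes was at 0.84, 1.02, 0.84 and 0.83, and with M833 in Cy3 at 1.16, 0.98, 1.06 and 1.02. M833 arrays lay above the low WT arrays in both orientations and overlapped with WT replicates 7 and 8. After adjustment for dye the SD over 8 arrays was 0.66 in WT and 0.09 in M833. The means were -0.28 on WT replicates 1, 2, 5 and 6, 0.94 on WT replicates 3, 4, 7 and 8, and 0.998 and 0.94 on the M833 replicates with the same numbers. The gap of 1.22 between the WT sets was the 127th largest of 12761 features, where the median gap was 0.13 and 178 features reached 1.

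The call of Nes rested on that gap. Without WT replicates 1, 2, 5 and 6 the difference between M833 and WT was 0.030 (95% interval -0.08 to 0.14, adjusted p = 0.702, limma), and without WT replicates 3, 4, 7 and 8 it was 1.25 (1.14 to 1.37, adjusted p = 1.1e-07). These fits called 33.9% and 36.3% of all features. Fits without single arrays kept the call in 4 of 16 cases, those that left out WT replicate 3, 4, 7 or 8, with adjusted p from 0.0206 to 0.0899 over the 16 fits. Treating each set of 4 arrays as a random block (the set block) gave the difference of 0.64 an adjusted p of 0.0928 in limma. With only the WT sets as blocks, a fit chosen after seeing the data, it was 0.0363. Block fits apply 1 correlation to all features, and the SE of Nes was 0.22 without and 0.23 with the set block. They may therefore not take up the full set gap of Nes. Against the reference Nes was at 0.97 in M833 (adjusted p = 4.4e-05, limma) and at 0.33 in WT (adjusted p = 0.0707), and the WT mean took the opposite sign, -0.28, without replicates 3, 4, 7 and 8. Called against the reference were 72.4% of all features in M833, 36.3% above it, and 79.2% in WT.

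**Figure D1:**
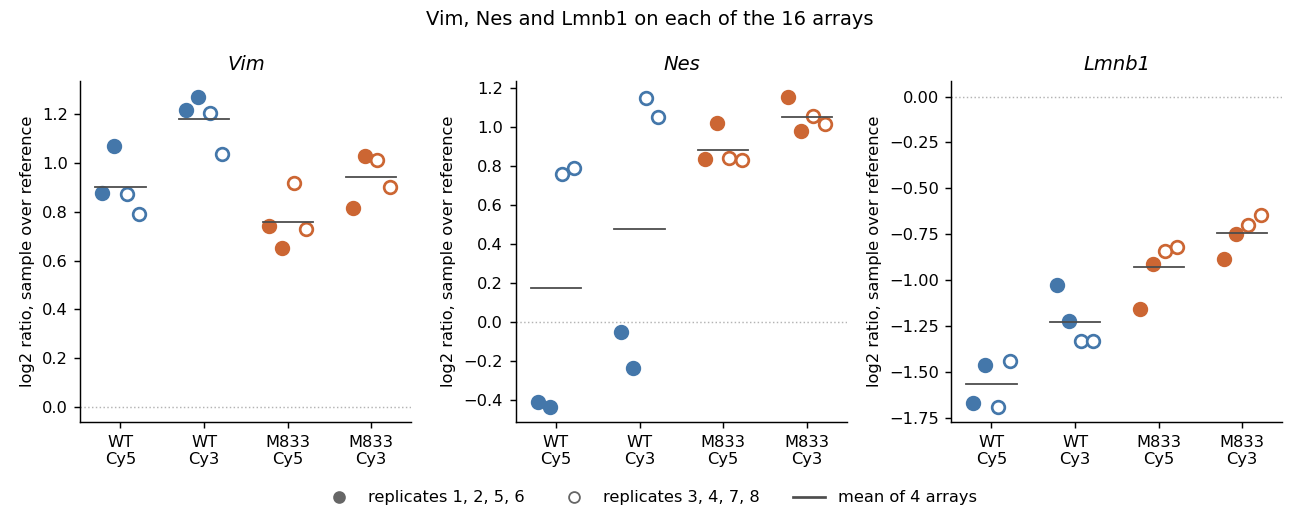
Log2 ratio of sample over reference (y axis) for Vim, Nes and Lmnb1 on each array, by cell type and dye of the sample (x axis); filled points are replicates 1, 2, 5 and 6, open points replicates 3, 4, 7 and 8, and lines are means of 4 arrays. For Nes the filled WT points lie between -0.44 and -0.05 and all other points between 0.76 and 1.16, while for Lmnb1 the M833 arrays lie above the WT arrays within each dye.

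Lmnb1, the lamin of the nuclear rim, was below the reference on all 16 arrays and less so in M833. Averaged over its 2 probes it was at -1.67, -1.46, -1.69 and -1.44 on WT replicates 1 to 4 in Cy5 and at -1.03, -1.22, -1.33 and -1.33 on WT replicates 5 to 8 in Cy3. In M833 it was at -1.16, -0.91, -0.84 and -0.82 in Cy5 and at -0.88, -0.75, -0.70 and -0.65 in Cy3. Within each dye orientation all 4 M833 arrays were above all 4 WT arrays, which held for 4.01% of all features. The mean was -1.40 ± 0.13 in WT and -0.84 ± 0.13 in M833 (SD after adjustment for dye, n = 8). Both means were below 0 in limma, with adjusted p = 1.4e-13 and 9.6e-11, where 35.8% of features were called below the reference in WT and 36.1% in M833.

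The 2 probes of Lmnb1 moved the same way by unlike amounts. Probe 201347 differed by 0.66 ± 0.07 and probe 200764 by 0.46 ± 0.09 (SE, n = 8 per cell type), with adjusted p = 6.6e-06 and 0.00189 in limma with each probe fitted by itself. Probe 201347 separated the cell types in both orientations, with WT from -1.81 to -1.46 and M833 from -1.18 to -0.67 in Cy5, and WT from -1.39 to -1.17 and M833 from -0.85 to -0.65 in Cy3. Probe 200764 did so in Cy5, with WT from -1.73 to -1.23 and M833 from -1.13 to -0.72, but not in Cy3. There WT replicate 5 at -0.89 was above M833 replicate 5 at -1.08. The transcripts or exons that the probes cover are not known here.

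The call of Lmnb1 held against either set of WT arrays. Its difference was 0.61 without WT replicates 1, 2, 5 and 6 (adjusted p = 3.0e-05, limma) and 0.51 without WT replicates 3, 4, 7 and 8 (adjusted p = 0.000637). A call in the same direction in both of these fits was made for 14.4% of all features, and calls in opposite directions for 3.35%. The WT sets themselves were at -1.35 and -1.45 after adjustment for dye, a gap of -0.10 against the 1.22 of Nes. Lmnb1 was at -0.92 and -0.75 on the M833 replicates with the same numbers. That gap of 0.17 stands beside a median size of 0.053 over all features. Its difference was 0.65 without M833 replicates 1, 2, 5 and 6 and 0.47 without M833 replicates 3, 4, 7 and 8, both called. The call also held in each dye orientation alone, with 0.63 in Cy5 (adjusted p = 0.0119) and 0.48 in Cy3 (adjusted p = 0.00966), and its adjusted p did not exceed 0.0119 in any of the 30 alternative fits of the gene. With log ratios scaled between arrays the difference fell to 0.34 (adjusted p = 0.00506).

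Vim, the filament gene most typical of fibroblasts, was above the reference on all 16 arrays and slightly lower in M833. It was at 0.88, 1.07, 0.87 and 0.79 on WT replicates 1 to 4 in Cy5 and at 1.22, 1.27, 1.20 and 1.04 on WT replicates 5 to 8 in Cy3. In M833 it was at 0.74, 0.65, 0.92 and 0.73 in Cy5 and at 0.82, 1.03, 1.01 and 0.90 in Cy3. In Cy3 the highest M833 array lay just under the lowest WT array, and in Cy5 M833 replicate 3 was above WT replicates 1, 3 and 4, so that the cell types overlapped. All M833 arrays lay below all WT arrays in both orientations for 6.49% of features. The mean was 1.04 ± 0.11 in WT and 0.85 ± 0.10 in M833 (SD after adjustment for dye, n = 8), both above 0 in limma (adjusted p = 3.9e-13 and 5.9e-12). Features called above the reference made up 43.5% in WT.

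The difference of Vim was within reach of the scaling and of the WT sets. Scaling of the log ratios between arrays left -0.035 (adjusted p = 0.698, limma), and the scaling factors ran from 0.734 to 1.09 over WT arrays and from 0.891 to 1.27 over M833 arrays. Without WT replicates 1, 2, 5 and 6 it was -0.13 (adjusted p = 0.126) and without WT replicates 3, 4, 7 and 8 it was -0.26 (adjusted p = 0.00586). Neither dye orientation alone gave a call, with -0.14 in Cy5 (adjusted p = 0.304) and -0.24 in Cy3 (adjusted p = 0.0648). With each set of 4 arrays as a random block the call of Vim was lost (adjusted p = 0.153), as it was with only the WT sets as blocks (adjusted p = 0.0625). The 16 fits without a single array, which leave the sets in place, kept the call, with differences from -0.22 to -0.17.

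All 3 members read lower with the sample in Cy5. The dye term, Cy5 minus Cy3, was -0.23 ± 0.05 for Vim, -0.26 ± 0.07 for Lmnb1 and -0.24 ± 0.22 for Nes (SE, n = 8 arrays per orientation), and it was called for Vim (adjusted p = 0.0027, limma) and Lmnb1 (adjusted p = 0.0046) and for 41.3% of all features. The interaction of dye and cell type was 0.10 ± 0.11 for Vim, 0.13 ± 0.46 for Nes and 0.15 ± 0.13 for Lmnb1, with an adjusted p of 0.9997 in limma for each. No feature was called for that interaction, 0.00% of 12761, with 361 at an unadjusted p under 0.05, where 638 are expected by chance.

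**Figure D2:**
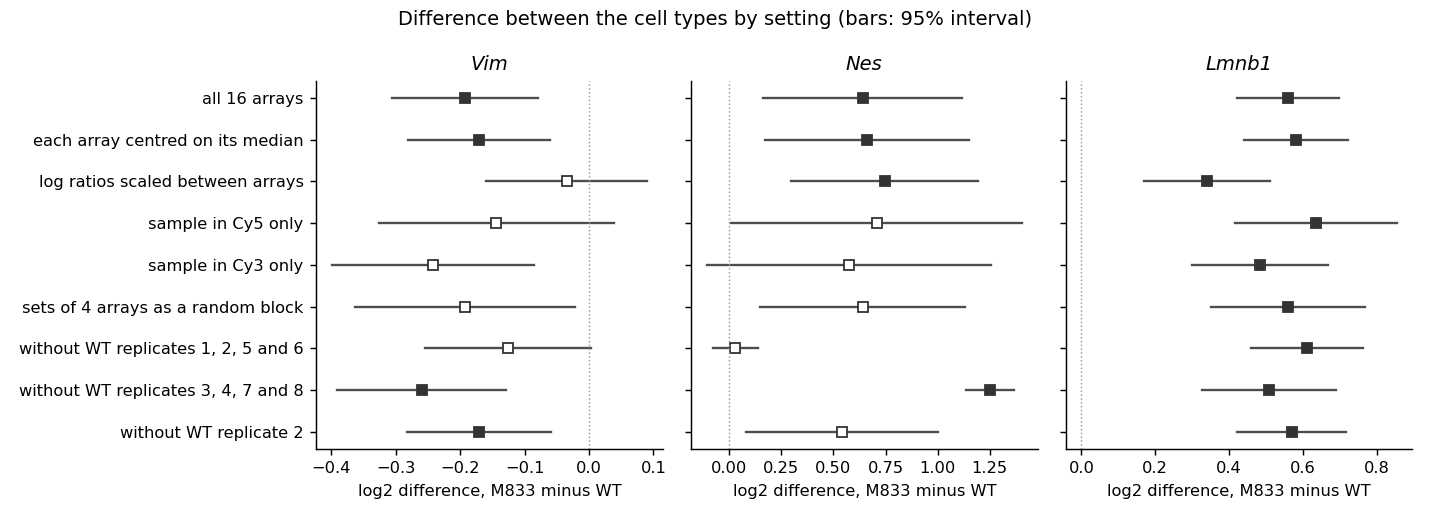
Log2 difference, M833 minus WT (x axis), with its 95% interval for Vim, Nes and Lmnb1 under 9 settings of the fit (y axis); filled squares have a limma adjusted p under 0.05 over all features and open squares do not. Lmnb1 is called in each setting shown, Nes moves from 0.030 to 1.25 with the WT set left out, and Vim moves from -0.035 with scaling to -0.26 without WT replicates 3, 4, 7 and 8.

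The genes whose pattern was most like each member were found by Pearson's r over the 16 arrays, after the mean of each dye orientation was taken off. These points share the reference RNA and the sets of arrays, and the r values are descriptions. For Nes the 5 named genes with the highest r were Egln1 (0.988), a prolyl hydroxylase that marks HIF-1alpha for degradation, the glucose transporter gene Slc2a3 (0.987), Tppp3 (0.985), the ion pump regulator gene Fxyd6 (0.983) and Bcar1 (0.982), which encodes an adaptor of focal adhesions. Over the 8 WT arrays alone their r with Nes was from 0.991 to 0.997, and over the 8 M833 arrays from -0.31 to 0.64. Each repeated the WT gap of Nes. That gap makes up most of the spread of Nes, so genes picked by their r with Nes share it by selection. The gap and the high r over WT arrays are therefore no separate results. Slc2a3 was at -1.42 on WT replicates 1, 2, 5 and 6, -0.52 on WT replicates 3, 4, 7 and 8, and -0.44 and -0.57 on the M833 replicates with the same numbers. Bcar1 was at 0.65 and 0.98 on the WT sets and at 0.99 and 0.94 on the M833 sets. Of the 5 only Fxyd6 passed the test of M833 against WT over all arrays (0.86 ± 0.28, SE, adjusted p = 0.0311, limma). The 2 probes of Egln1 differed in size, 0.50 and 0.11.

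For Lmnb1 the 5 most alike genes were Exo1 (0.962), an exonuclease of DNA mismatch repair, the nuclear import receptor gene Kpna2 (0.955), Cdca4 (0.954), Incenp (0.948), which encodes the scaffold of the chromosomal passenger complex, and the RNA-binding protein gene Hnrnpdl (0.943). All 5 were higher in M833, with differences from 0.36 for Kpna2 to 0.56 for Cdca4 and for Incenp. Over WT arrays alone their r with Lmnb1 was from 0.63 to 0.86, and over M833 arrays alone from 0.42 to 0.92. Incenp was at -0.49 and -0.67 on the 2 WT sets and at -0.07 and 0.03 on the M833 sets.

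For Vim the most alike genes were the dynein gene Dnah5 (0.921), the ubiquitin ligase gene Mkrn2 (0.9004), the lysosomal amino acid transporter gene Slc38a9 (0.893), Parva (0.869), whose product parvin links integrins to actin, and S100a13 (0.866). Their differences were small, from -0.24 for S100a13 to -0.12 for Mkrn2 and Dnah5. Dnah5 was at 0.18 in WT and 0.06 in M833.

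**Figure D3:**
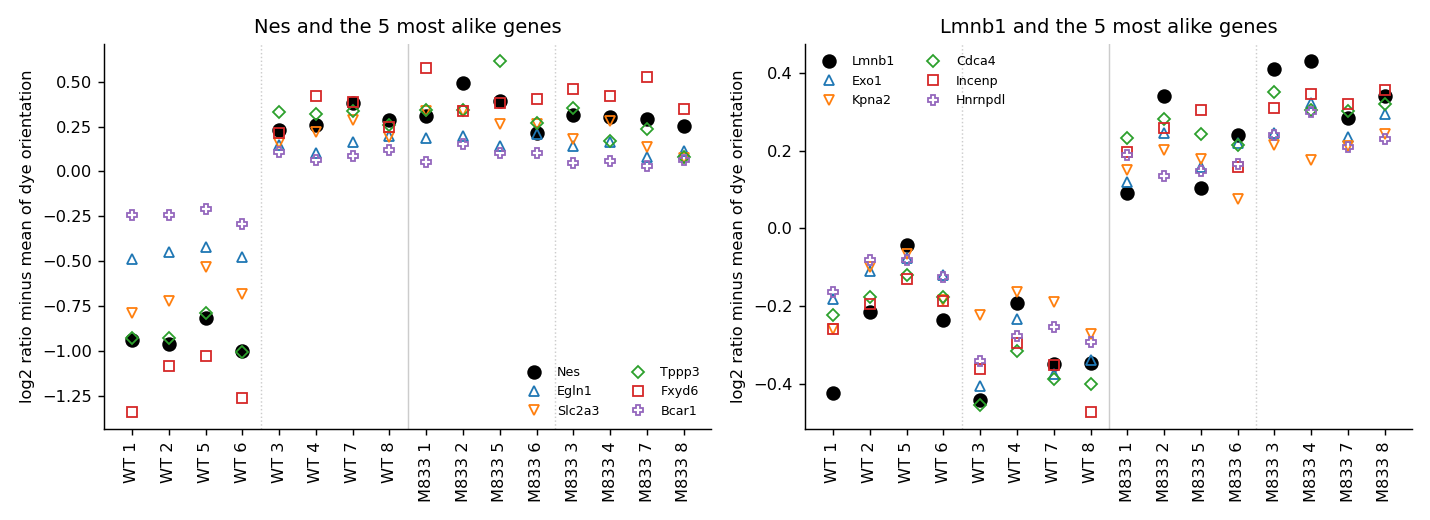
Log2 ratio minus the mean of its dye orientation (y axis) on each of the 16 arrays (x axis, WT to the left of the solid line, each cell type ordered as replicates 1, 2, 5, 6 and then 3, 4, 7, 8) for Nes and Lmnb1 (black) and the 5 named genes most correlated with each. Around Nes all 6 genes are low on the same 4 WT arrays, and around Lmnb1 all 6 genes are higher on each M833 array than on any WT array. The genes were picked by their r over these same arrays, so a shared pattern follows from the selection.

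Of 36 listed intermediate filament genes 10 were measured, and beside Nes, Lmnb1 and Vim none of the other 7 passed the test. These 3 of 10 are near the background of 31.9% of named genes called, and only 1 of them, Lmnb1, was called with each set of 4 arrays as a random block. Lmna, which encodes the A-type lamins, differed by 0.23 ± 0.14 (adjusted p = 0.27, limma), with WT arrays from 0.36 to 1.57 (median 0.83) and M833 arrays from 0.70 to 1.53 (median 1.13). It too differed between the WT sets, but in the direction opposite to Nes, at 1.15 on replicates 1, 2, 5 and 6 and at 0.61 on replicates 3, 4, 7 and 8. Without the former its difference of 0.50 was called (adjusted p = 0.0125). Iffo2, a filament family member known mainly by sequence, was at 0.59 and 1.10 on the WT sets and differed by -0.26 ± 0.11 (adjusted p = 0.0954), or by -0.52, which was called, without WT replicates 1, 2, 5 and 6 (adjusted p = 0.000391, limma). Krt18, a keratin of simple epithelia, was at -1.70 and -0.86 on the WT sets and differed by 0.27 ± 0.19 (adjusted p = 0.307), with probes at 0.46 and 0.09. Without WT replicates 3, 4, 7 and 8 its difference of 0.69 was called (adjusted p = 0.00178). Its partner Krt8 (0.20 ± 0.09, adjusted p = 0.111), Krt19 (0.15 ± 0.06, adjusted p = 0.107) and Krt7 (-0.16 ± 0.10, adjusted p = 0.241) were below the reference on every array, with medians of -3.11, -1.49 and -2.33 in WT. After scaling Krt8 turned to -0.32 and Krt7 stood at -0.62, both called (adjusted p = 0.0251 and 0.000973, limma), and Krt19 turned to -0.10, which was not. Krt7 was also called, at -0.32, without WT replicates 1, 2, 5 and 6 (adjusted p = 0.0274). The neurofilament gene Nefl had a WT median of -3.14 and an M833 median of -2.61, with WT replicate 1 alone at 0.87, and differed by 0.08 ± 0.52 (adjusted p = 0.926). The median difference of the 10 genes was 0.18, beside -0.03 over all features. The 10 include the 3 members, which were chosen with earlier results of these data known, so the count and median rest partly on that choice.

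**Figure D4:**
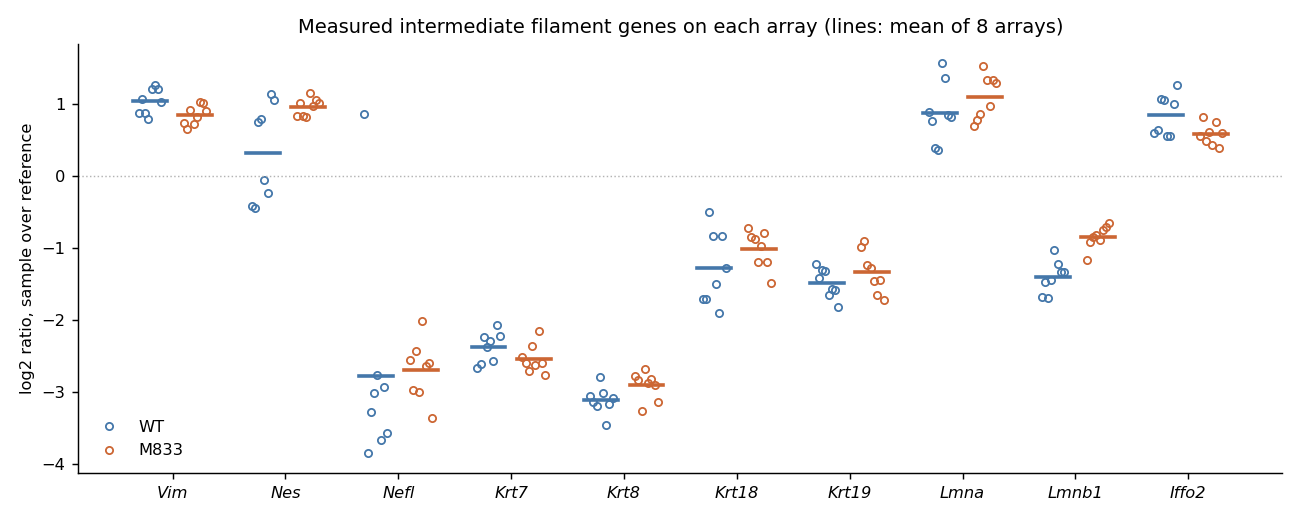
Log2 ratio of sample over reference (y axis) for the 10 measured intermediate filament genes (x axis) on each WT and M833 array, with lines at the mean of 8 arrays. The WT arrays of Nes fall into a low and a high group, Lmnb1 shifts upward in M833, and Nefl has WT replicate 1 at 0.87 far above its other arrays.

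Of 14 measured plakins and filament linkers, which bind filaments (20 listed), 4 rose, none fell and 10 missed the threshold (median difference 0.034). A share of 4 in 14 is near the background of 31.9% of named genes called. The plakophilin gene Pkp4 rose by 0.34 ± 0.09, the desmosomal cadherin genes Dsg2 and Dsc2 by 0.30 ± 0.09 and 0.14 ± 0.05, and Plec, encoding the plectin that ties vimentin to actin and adhesions, by 0.14 ± 0.05 (SE, n = 8 per cell type). With log ratios scaled between arrays the direction of this list turned, to 1 higher and 3 lower, with Plec still higher at 0.31. Without WT replicates 1, 2, 5 and 6 it was 2 higher and 4 lower, and without the other WT set 4 higher and 2 lower. When each set of 4 arrays was a random block, 0 of the 14 were called in limma.

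Some partners of the lamina rose, as Lmnb1 did, but most were not called. Of 14 measured (of 22 listed) 5 rose, 1 fell and 8 missed the threshold (median difference 0.07, beside -0.03 over all features). These 6 calls in 14 stand beside 31.9% of all named genes called. Tmpo, which encodes lamina-associated polypeptide 2, rose by 0.34 ± 0.06, Banf1, whose DNA-bridging protein binds it, by 0.27 ± 0.05, the nuclear pore gene Nup88 by 0.26 ± 0.04 and Lbr, the lamin B receptor gene, by 0.23 ± 0.07 (SE, n = 8 per cell type). Tor1a, encoding a lumenal ATPase of the nuclear envelope, fell by 0.10 ± 0.03, a call that was lost with centred arrays (adjusted p = 0.113, limma), with scaled log ratios, with the set block (0.148) and without WT replicates 3, 4, 7 and 8 (0.166). Tmpo, Banf1, Nup88 and Sun1 (0.13 ± 0.02) were called without either WT set, with scaled log ratios and with the set block. Lbr was at 0.09 and not called without WT replicates 3, 4, 7 and 8 (adjusted p = 0.121, limma), at 0.029 with scaled log ratios, and not called with the set block (adjusted p = 0.0802). Of 5 measured enzymes of the prenylation and processing of lamins and other CAAX proteins (of 8 listed), 1 rose, 1 fell and 3 missed the threshold (median difference 0.0053). The farnesyltransferase subunit genes moved apart, Fntb up by 0.20 ± 0.03 and Fnta down by 0.16 ± 0.04. Fnta was at -0.081 and not called without WT replicates 1, 2, 5 and 6 (adjusted p = 0.078, limma), and at -0.25 without the other WT set.

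Among 16 measured genes of nuclear pores and of chromatin at the nuclear envelope (of 25 listed), 11 rose, 1 fell and 4 missed the threshold (median difference 0.17). These 12 calls in 16 stand beside 31.9% of all named genes called. The heterochromatin protein genes Cbx3, Cbx1 and Cbx5 rose by 0.39 ± 0.08, 0.31 ± 0.04 and 0.30 ± 0.05 and Nup188 by 0.29 ± 0.04, while Aaas fell by 0.17 ± 0.03 (SE, n = 8 per cell type). With scaled log ratios 9 were higher and none lower, and Cbx5 took the opposite sign at -0.21, which was not called (adjusted p = 0.235, limma). With the set block 8 of the 12 calls were left, 7 higher and 1 lower. Without WT replicates 1, 2, 5 and 6 the list had 10 higher and 1 lower, as it did without the other WT set.

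Of 17 measured kinases and phosphatases that act on filaments (of 22 listed), 5 rose, 1 fell and 11 missed the threshold (median difference -0.0052). A share of 6 in 17 is near the background of 31.9% of named genes called. Those that rose were the mitotic kinase genes Plk1 (0.83), Aurka (0.65), Cdk1 (0.58) and Aurkb (0.52) and the phosphatase gene Ppp1ca (0.12), and Camk2d fell (-0.20). With each set of 4 arrays as a random block 3 of these 6 calls were left, and Aurkb (adjusted p = 0.0589, limma), Ppp1ca (0.141) and Camk2d (0.092) lost theirs. Without WT replicates 3, 4, 7 and 8 Aurkb was at 0.19 (adjusted p = 0.156) and Ppp1ca at 0.042 (adjusted p = 0.3). The list then had 3 higher and 4 lower, against 7 higher and 3 lower without the other WT set. All 4 mitotic kinases also stand in the list of cell cycle genes, of which 29 of 37 measured members (of 45 listed) rose and none fell, with a median of 0.55. Mki67 (-0.11 ± 0.14, adjusted p = 0.557, limma) and Ccna2 (0.16 ± 0.18, adjusted p = 0.534) were not called, though Ccna2 was, at 0.52, without WT replicates 1, 2, 5 and 6. The mean of the cell cycle list lay between -0.25 and -0.20 on WT replicates 1, 2, 5 and 6, between -0.64 and -0.57 on the other 4 WT arrays and between -0.03 and 0.13 on M833 arrays. Lmnb1, whose level is known to vary with proliferation, moved in the same direction as this list between the cell types. From WT replicates 1, 2, 5 and 6 to WT replicates 3, 4, 7 and 8 the list changed by a median of -0.40 and Lmnb1 by -0.10. The part of cell cycling in the difference of Lmnb1 was not tested. Of 9 measured senescence-linked genes (of 20 listed) 3 were called, a share near that of all named genes. Of the 9 genes 2 rose, Hmgb2 (0.64) and Igfbp5 (0.19), and 1 fell, the lysosomal galactosidase gene Glb1 (-0.37), with a median of -0.024. With scaled log ratios none of them was higher and 2 were lower. Both rises were lost with the set block (adjusted p = 0.0688 for Hmgb2 and 0.184 for Igfbp5, limma). Without WT replicates 3, 4, 7 and 8 Hmgb2 was at 0.28 (adjusted p = 0.162) and Igfbp5 at 0.044 (adjusted p = 0.514), and the list had none higher and 4 lower, against 4 higher and 2 lower without the other WT set.

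The other cytoskeletal lists gave the setting of the filament genes. Over all named genes 31.9% were called, and the 12 of 33 actin and 6 of 18 microtubule genes called are near that share. Of 33 measured actin cytoskeleton genes (of 43 listed) 3 rose, 9 fell and 21 missed the threshold (median difference -0.11), and with scaled log ratios the split turned to 7 higher and 3 lower. With each set of 4 arrays as a random block 4 of the 12 calls were left, and those of Tmsb10 (adjusted p = 0.193, limma), Vcl (0.0651) and Tpm3 (0.15) were lost. The split was 2 higher and 21 lower without WT replicates 1, 2, 5 and 6, and 9 higher and 4 lower without the other WT set. The actin-severing gelsolin gene Gsn fell by 0.71 ± 0.05, Tmsb10, encoding an actin monomer binder, by 0.68 ± 0.21 and the vinculin gene Vcl by 0.34 ± 0.09, while Tagln2 rose by 0.42 ± 0.06 and Tpm3 by 0.09 ± 0.03 (SE, n = 8 per cell type). Vcl was not called with scaled log ratios (adjusted p = 0.368, limma), nor without WT replicates 3, 4, 7 and 8 (adjusted p = 0.175), and Tmsb10 was not called without WT replicates 1, 2, 5 and 6 (adjusted p = 0.123). Of 18 measured tubulins and microtubule proteins (of 29 listed) 4 rose, 2 fell and 12 missed the threshold (median difference 0.06). Stmn1, encoding a microtubule destabiliser high in dividing cells, rose by 0.59 ± 0.15, Tubb6 by 0.37 ± 0.04 and Tuba1b by 0.34 ± 0.04, and Map1lc3a fell by 0.50 ± 0.04 and Clip1 by 0.24 ± 0.02. With scaled log ratios Stmn1 was at 0.32 and not called (adjusted p = 0.151) and the split was 2 higher and 2 lower. The difference of Stmn1 was 0.98 without WT replicates 1, 2, 5 and 6 and 0.20 without the other WT set, both called. The list had 6 higher and 4 lower without the former set and 6 higher and 2 lower without the latter. Of 11 measured markers of the change from epithelial to mesenchymal state (of 25 listed), to which Vim is often joined, 5 fell, none rose and 6 missed the threshold (median difference -0.18). They included the TGF-beta receptor gene Tgfbr2 (-0.65), the fibronectin gene Fn1 (-0.38), the N-cadherin gene Cdh2 (-0.30) and Tgfb2 (-0.29). With scaled log ratios 3 were lower and 1 higher, and Fn1 at -0.061 and Tgfb2 at -0.14 were not called. The 3 lower included the E-cadherin gene Cdh1, an epithelial marker (-0.65, adjusted p = 0.000479, limma). Tgfb2 was also not called without WT replicates 3, 4, 7 and 8 (-0.10, adjusted p = 0.091, limma). Without the other WT set 8 were lower, Cdh1 among them (-0.29), and 1 higher.

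**Figure D5:**
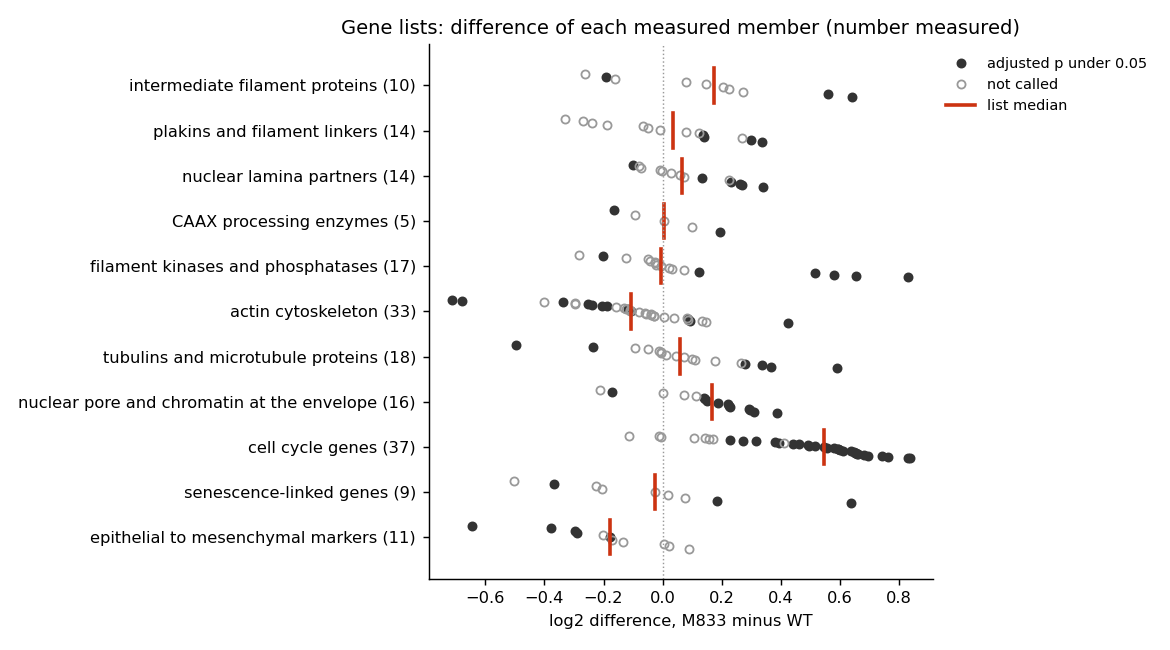
Log2 difference, M833 minus WT (x axis), of each measured member of 11 gene lists (y axis, number measured in brackets); dark points have a limma adjusted p under 0.05 over all features and red lines are list medians. Lists of the nuclear envelope and of the cell cycle lie mostly to the right of 0, with medians of 0.17 for pores and chromatin and 0.55 for the cell cycle, and the actin list lies mostly to the left, at -0.11.

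Markers of other cells that can contain these transcripts were set beside the members. The counts of called markers stand beside 31.9% of all named genes called. In such bulk RNA, fewer cells of a type and less RNA per cell cannot be told apart, and a ratio to the reference does not show whether a marker is present. Of 7 measured fibroblast markers (of 11 listed) 4 fell, none rose and 3 missed the threshold (median difference -0.21), with list means from -0.84 to -0.39 over WT and from -1.17 to -0.69 over M833 arrays. Col1a2 (-0.87), Col3a1 (-0.38), Col1a1 (-0.20) and Lum (-0.17) fell. With the set block 2 of these 4 calls were left, and Col1a1 (adjusted p = 0.0636, limma) and Lum (0.285) lost theirs. Lum was also not called without either WT set (adjusted p = 0.0505 and 0.0618). All 7 measured macrophage and leukocyte markers (of 19 listed), cells that also make vimentin, fell, with a median of -0.86 and list means from -0.46 to -0.28 over WT and from -1.60 to -1.29 over M833 arrays. These were Lyz2 (-1.67), C1qb (-1.45), C1qa (-1.17), Lcp1 (-0.86), Fcer1g (-0.81), Laptm5 (-0.68) and C1qc (-0.55). Their part in the difference of Vim was not tested.

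For Nes the cells to compare are neural, muscle and endothelial. Only 3 of 16 neural and glial markers were measured, Tubb3 (0.26), Slc1a3 (-0.09) and Mbp (-0.17), and none was called, with a median of -0.09. These 3 are too few to stand for neural progenitors. Slc1a3 and Mbp were called lower with scaled log ratios, as was Mbp without WT replicates 1, 2, 5 and 6 and Slc1a3 without the other WT set. The means of these 3 genes ran from -1.43 to -1.06 on the 4 WT arrays with low Nes and from -1.55 to -1.20 on those with high Nes. Of 23 skeletal muscle markers 3 were measured and all rose, Mylpf (1.04), Tnnt1 (0.61) and Myl4 (0.17), with a median of 0.61, and their means ran from -2.85 to -2.48 and from -2.65 to -2.17 over these WT sets and from -2.27 to -1.72 over M833. With scaled log ratios Mylpf (0.13) and Tnnt1 (0.27) were not called. With the set block Tnnt1 (adjusted p = 0.198, limma) and Myl4 (0.191) lost their calls, and Myl4 was at 0.036 (0.457) without WT replicates 3, 4, 7 and 8. Tnnt1 was not called without the other WT set (0.0732), and Mylpf was at 0.53 there and at 1.55 without WT replicates 3, 4, 7 and 8. Of 15 endothelial markers 4 were measured and none was called (median 0.14, means from -1.89 to -0.99 over WT and from -1.63 to -1.18 over M833 arrays). Of 9 measured epithelial markers (of 14 listed) only Esrp1 rose (0.42) and none fell, with a median of 0.27, means from -2.60 to -2.01 over WT and from -2.58 to -1.79 over M833, and with scaled log ratios 3 were lower and none higher. The call of Esrp1 was lost with scaling, with the set block (adjusted p = 0.322, limma) and without either WT set (0.168 and 0.0614). The part of such cells in the levels of Nes was not tested.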

How the data were processed

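Total RNA of WT and M833 cells was labelled with dye-coupled nucleotides by reverse transcription, per the labels' protocols. The deposited values are log2 ratios of sample and reference, normalised by the authors with limma, per the submitters' processing notes, with no version given. The log2 base was read from the values (largest 15.35). The background correction, normalisation method and filters are, beyond this, not given in the sources used here. Array medians ran from -0.02 to 0.07.

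Probes were named through the platform annotation (15247 probes, 9600 with 1 symbol, 214 with several, 5433 with none), with symbols checked through Entrez numbers (9492 matched, 0 changed). Probes of 1 gene were averaged to 12761 features, 7114 of them named genes. There were 0 missing values. Groups follow the source names in the labels, and replicate numbers follow the series' order.

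All 16 arrays were fitted with limma 3.58.1 in R 4.3.3 (lmFit, eBayes) with terms for cell type and dye orientation, Benjamini-Hochberg adjustment over all features and a threshold of 0.05. The fit was tested on simulated data. Errors treat arrays as independent, and their number limits the precision. The alternatives were centring, scaling to 1 median absolute log ratio, no dye term, single probes, array weights, robust moderation, 1 dye orientation, sets of arrays as blocks or left out, M833 replicates 6 to 8 (another slide number series) left out, and each array left out.

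Genes named were Vim, Nes, Lmnb1, all measured filament genes, up to 4 called members of largest size per list and up to 2 in the other direction, Mki67, Ccna2 and the 5 genes most alike to each member. Further called markers, Sun1 and Cdh1 were added after their values were seen. The members and the 17 lists were chosen with earlier results of these data known, and the sets of arrays come from such results.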

Additional observations from a re-analysis of the deposited data

Results flagged for a closer look

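In 3 of 54 groups of 8 arrays (the filament genes, the 2 Lmnb1 probes and the genes most alike to the members, each in WT and in M833), 1 array stood apart from the others by more than Dixon's 95% critical value for the gap over the range, which chance gives in about 1 of 20 groups. A count of 3 is close to that chance share. Nefl was at 0.87 on WT replicate 1, with the other WT arrays from -3.85 to -2.77. Mkrn2 was at 0.42 on WT replicate 6, above the other WT arrays. Kpna2 was at 0.23 on M833 replicate 6, below the other M833 arrays. No group of Vim, Nes or Lmnb1, or of the single Lmnb1 probes, met this limit.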

How the results depend on the processing

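Lmnb1 kept its direction and its call in all 32 alternatives tried, from 0.34 with scaling upward, and from 0.53 to 0.60 with single arrays left out. Vim kept its call in 22 and lost it in 9, always with the same sign: -0.035 with scaling, -0.19 with no dye term or with either random block, -0.14 in Cy5 and -0.24 in Cy3 alone, -0.13 without WT and -0.15 without M833 replicates 1, 2, 5 and 6, and -0.21 without M833 replicates 6 to 8. With single arrays left out it ran from -0.22 to -0.17. Nes kept its call in 10 and lost it in 21: 0.64 with no dye term or with the sets of 4 arrays as a random block, 0.37 with array weights, 0.71 in Cy5 and 0.57 in Cy3 alone, 0.030 without WT and 0.61 without M833 replicates 1, 2, 5 and 6, 0.67 without M833 replicates 3, 4, 7 and 8, 0.70 without M833 replicates 6 to 8, and the 12 fits without WT replicate 1, 2, 5 or 6 or without any M833 array, at 0.54 to 0.66. Over all 16 fits with single arrays left out Nes ran from 0.54 to 0.75. Against the reference Nes in WT reversed to -0.28 without replicates 3, 4, 7 and 8. The causes were not tested, and fits that leave arrays out also rest on fewer arrays.

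Of 12761 features 3301 were called. The count was 2000 with no dye term, 835 in Cy5 and 1100 in Cy3 alone, 1465 with the sets of 4 arrays as a random block, 1685 and 1858 without M833 replicates 1, 2, 5 and 6 or 3, 4, 7 and 8, and 2139 with the WT sets as a random block, an alternative chosen after seeing the data. Centring moved the split from 1276 higher and 2025 lower to 1558 and 1635. With the sets of 4 arrays as a random block the called members numbered 1 of the filament list, 0 of the plakins, 3 of the kinases and phosphatases, 4 of the actin list, 1 of the senescence list, 2 fibroblast, 1 muscle and 0 epithelial markers. Without WT replicates 1, 2, 5 and 6 they numbered 10 of the kinases and phosphatases, 23 of the actin list, 10 of the tubulins, 6 of the senescence list, 9 of the epithelial to mesenchymal list, 1 neural and 2 epithelial markers. Without WT replicates 3, 4, 7 and 8 they numbered 1 neural and 2 epithelial markers, and with scaling 2 neural, 1 muscle and 3 epithelial markers. No paired analysis was possible because the labels give no replicate numbers.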
